A study of Mus musculus with 6 samples.

Results

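The housekeeping genes commonly used as references in RT-qPCR, *Actb*, *Tbp*, *Hprt*, *B2m*, *Ppia*, *Ywhaz*, *Gusb* and *Tfrc*, were examined in RNA-seq counts of the mouse hippocampus. These 8 of the 25239 genes counted were chosen by name and not by their measured values, although earlier results of these data were known. *Gapdh*, the reference gene against which the study normalised its own RT-qPCR, is not one of the 8 and serves as a comparison. WT mice (Ube3am+/p+, n = 3) and Ube3am-/p+ mice (n = 3) were male C57BL/6 animals of 6 to 8 weeks, and each gave 1 library. Ube3am-/p+ mice, a model of Angelman syndrome, lack the maternal copy of *Ube3a*, the imprinted gene of a ubiquitin ligase, and keep the paternal copy, which neurons largely silence. The comparison asked how steady the reference genes were over the 6 libraries and whether their levels differed between the genotypes. The expression change of a target gene in RT-qPCR is read against such a gene, so its measured value depends on both.

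A reference gene corrects RT-qPCR for the amount and quality of the input RNA, on the assumption that its own transcript per cell stays level across the samples compared. The genes in common use were taken from different basic functions so that they would not be regulated together: the cytoskeleton (*Actb*), transcription (*Tbp*), purine salvage (*Hprt*), antigen presentation (*B2m*), protein folding (*Ppia*), signalling adaptors (*Ywhaz*), lysosomal breakdown of glycosaminoglycans (*Gusb*) and iron uptake (*Tfrc*). Several of these functions are not equally active in all brain cells, with *B2m* and *Tfrc* known for high expression in microglia or in the endothelium of brain vessels.

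Promoter sequences are given for *Hprt* and *B2m*, the pair of members whose counts moved together most closely, and for *Gusb*, the member that moved least like the others. They span the annotated start (RefSeq, GRCm38.p6, 6 of the 8 members matched) and are written 5′ to 3′ on the strand of the gene. Capitals mark matches to the core letters of common promoter elements, each searched on both strands. These are TATAAA for the TATA box, the letters CCAAT for the element named after them, and GGGCGG for the GC box.
Hprt (chrX:52987828-52988127, + strand): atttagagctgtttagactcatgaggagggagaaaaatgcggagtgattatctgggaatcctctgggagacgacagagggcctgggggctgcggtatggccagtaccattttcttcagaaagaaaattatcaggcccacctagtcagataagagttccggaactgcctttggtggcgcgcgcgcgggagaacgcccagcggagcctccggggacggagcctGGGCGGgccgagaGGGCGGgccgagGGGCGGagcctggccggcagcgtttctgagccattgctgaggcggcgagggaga
B2m (chr2:122147437-122147736, + strand): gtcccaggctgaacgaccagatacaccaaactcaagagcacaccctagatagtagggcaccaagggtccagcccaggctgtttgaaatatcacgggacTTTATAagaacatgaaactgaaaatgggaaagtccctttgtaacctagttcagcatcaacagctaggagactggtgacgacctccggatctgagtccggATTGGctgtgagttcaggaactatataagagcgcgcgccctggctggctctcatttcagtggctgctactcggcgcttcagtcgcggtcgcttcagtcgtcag
Gusb (chr5:130003000-130003299, - strand): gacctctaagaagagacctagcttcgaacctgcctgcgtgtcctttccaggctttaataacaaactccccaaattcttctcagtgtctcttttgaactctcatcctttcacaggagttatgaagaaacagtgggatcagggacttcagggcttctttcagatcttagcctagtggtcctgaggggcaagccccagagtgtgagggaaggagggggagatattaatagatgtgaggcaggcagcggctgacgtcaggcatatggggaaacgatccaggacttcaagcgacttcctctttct
The *Hprt* window held 3 matches to GGGCGG and none to TATAAA, the *B2m* window held 1 match to TATAAA and 1 to CCAAT, both on the opposite strand, and the *Gusb* window held no match to these letters. Among all 32851 promoter windows of the same length, 13.6% held TATAAA, 37.4% CCAAT and 35.7% GGGCGG. The windows of *Hprt*, *B2m* and *Gusb* held 22, 14 and 6 CpG dinucleotides, against a median of 7 over all windows.

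The transcript of *Tfrc* is known for iron-responsive elements in its 3′ UTR, hairpins that iron regulatory proteins bind when iron is low, which protects the mRNA from decay. The sites below are those in the main *Tfrc* transcript that hold a C followed by 5 bases and the loop letters CAGTG, which are in capitals, and they are shown because the gene of an iron regulatory protein was among the iron genes that passed the test. Positions count from the end of the coding sequence to the start of the motif.
Tfrc site 1 (895 bases after the coding sequence): ataattatcggaagCAGTGccttccata
Tfrc site 2 (1274 bases after the coding sequence): cacattatcgggagCAGTGtcttccata
Tfrc site 3 (1321 bases after the coding sequence): gtttttgcctaccaCAGTGtctatatcg
Tfrc site 4 (1339 bases after the coding sequence): gtctatatcggagaCAGTGatctccata
Tfrc site 5 (1386 bases after the coding sequence): gtaattatcgggaaCAGTGtttcccata
Sites 3 and 4 overlap. The same letters occurred at least once in 32.8% of 19486 main transcripts, and 127 of these held 5 or more, so the match alone marks no element. *Tbp* held 3 such matches and the other 6 members none.

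Each WT library held 7293272 to 8675252 counts on genes, and each Ube3am-/p+ library 8871052 to 11314409. The 8 hippocampal markers examined were all counted, with a summed level of 862 to 941 CPM (counts scaled to the total gene counts of a library) in WT and 787 to 890 in Ube3am-/p+ mice. *Ube3a* itself was at 104, 141 and 151 CPM in WT mice 1, 2 and 3 and at 96.8, 82.9 and 80.6 CPM in Ube3am-/p+ mice 1, 2 and 3. The libraries also differed in how counts depended on the GC content of a gene. The rank correlation across 14175 genes between GC content and the deviation of a library from the mean of all 6 was 0.045 in WT mouse 1 and 0.059 in Ube3am-/p+ mouse 1, but -0.51 and -0.57 in WT mice 2 and 3 and 0.53 in both Ube3am-/p+ mice 2 and 3. In mice 2 and 3, genotype and this relation therefore cannot be told apart, and values below are therefore also given after a correction of each library for the GC content and length of the transcripts, or, without a test, for the mice numbered 1.

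None of the 8 members passed the test between the genotypes. With edgeR's quasi-likelihood test (Benjamini-Hochberg adjusted p below 0.05 over all 14445 genes tested and a fold change above 1.2), 0 of 8 members passed, beside 2.01% of all genes tested (1.02% higher and 0.99% lower), and DESeq2 also passed 0 of 8, beside 4.94% of the genes given to it. At an unadjusted p below 0.05, 1 of 8 passed, beside 24.6% of all genes tested. The log2 fold change (Ube3am-/p+ over WT) was below 0 for 7 of the 8, all but *Gusb*, beside 49.7% of the genes tested. The median over the 8 was -0.17, against 0.0025 over all genes tested. With the GC and length correction the median was -0.052 and 6 of 8 were below 0. The CPM values of the genotypes did not overlap for 4 of 8 members, *Actb*, *Tbp*, *Ywhaz* and *Tfrc*, beside 25% of all genes tested. With libraries scaled by TMM, 2 of 8 did not overlap, beside 24.8%. Since these are bulk libraries, fewer cells of a type and less RNA per cell cannot be told apart in any of these values.

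**Figure D1:**
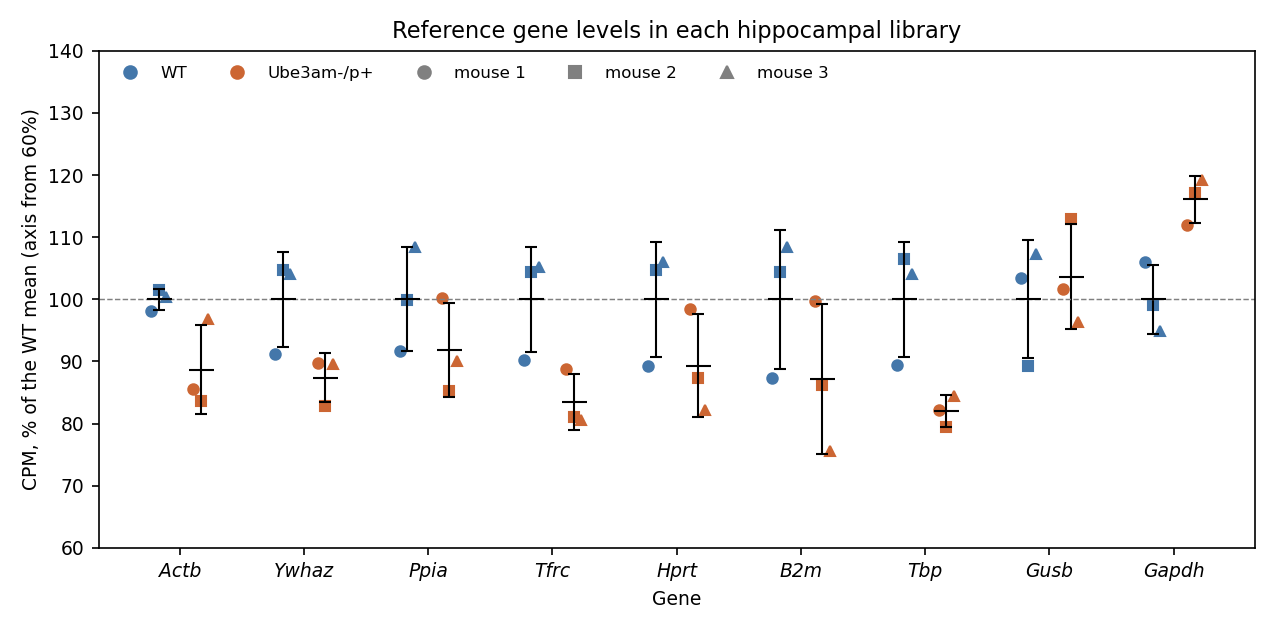
CPM of the 8 reference genes and of *Gapdh* in the 6 libraries, in percent of the WT mean of each gene on an axis that does not start at 0, with 1 point per mouse and a bar with the mean and SD of each genotype (n = 3). *Tfrc* lay between 134 and 156 CPM in WT and between 120 and 132 in Ube3am-/p+ mice, while *Gapdh* lay between 1267 and 1413 in WT and between 1493 and 1590 in Ube3am-/p+ mice.

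The members with the most counts were *Actb*, *Ywhaz* and *Ppia*. *Actb* (chromosome 5, 142903115 to 142906754 in GENCODE M21 on GRCm38), which encodes cytoplasmic beta-actin, was at 1392, 1439 and 1422 CPM in WT mice 1, 2 and 3 and at 1213, 1185 and 1373 CPM in Ube3am-/p+ mice 1, 2 and 3. The WT values lay close together and all above the Ube3am-/p+ values, of which mouse 3 came near the lowest WT mouse. The means were 1417 ± 23.7 and 1257 ± 102 CPM (SD, n = 3 each), a ratio of 0.887. The log2 fold change was -0.15 (SE 0.0853, 95% confidence interval -0.34 to 0.026, edgeR adjusted p = 0.272), and on the TMM scale the genotypes overlapped. The GC and length correction gave -0.24, and the pair of mice numbered 1 gave -0.19, so both values stayed below 0 and were no nearer to it. Of the 5 other actin genes, 3 were tested, 0 passed, and their median log2 fold change was -0.064.

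*Ywhaz* (chromosome 15, 36770770 to 36796929), the zeta member of the 14-3-3 adaptors that bind phosphorylated proteins, was at 978, 1124 and 1118 CPM in WT and 964, 889 and 962 CPM in Ube3am-/p+ mice. WT mouse 1 lay just above the highest Ube3am-/p+ mouse, and the other WT mice stood clear of all 3. The means were 1074 ± 82.6 and 938 ± 42.4 CPM (SD, n = 3 each). The log2 fold change was -0.18 (SE 0.0858, 95% confidence interval -0.36 to 0.0060, edgeR adjusted p = 0.216), and on the TMM scale the genotypes overlapped. It was -0.072 after the correction and -0.018 for the mice numbered 1. The 6 other 14-3-3 genes had a median of 0.012, and 0 of 6 passed.

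*Ppia* (chromosome 11, 6415443 to 6419817) encodes cyclophilin A, a prolyl isomerase that helps proteins fold and is the target of ciclosporin. Its levels were 532, 580 and 630 CPM in WT and 581, 495 and 523 CPM in Ube3am-/p+ mice, and the genotypes overlapped. The means were 581 ± 48.7 and 533 ± 44.1 CPM (SD, n = 3 each), with a log2 fold change of -0.11 (SE 0.0903, 95% confidence interval -0.30 to 0.086, edgeR adjusted p = 0.494). The correction gave -0.11 with the longest annotated transcript, whose GC content is 49.4%, and -0.32 with the principal coding transcript, at 55.4%, so the corrected value of *Ppia* depended on which transcript stood for the gene. The mice numbered 1 gave 0.13. Of 14 other cyclophilin genes, 0 passed and the median was 0.028.

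The nuclear and metabolic members were counted less deeply. *Tbp* (chromosome 17, 15499888 to 15528379), the TATA-binding protein that starts the assembly of the transcription machinery, had 146 to 185 counts per library. Its levels were 17.9, 21.3 and 20.8 CPM in WT and 16.5, 15.9 and 16.9 CPM in Ube3am-/p+ mice, with all 3 Ube3am-/p+ mice below WT mouse 1, the lowest of the WT mice. The means were 20.0 ± 1.85 and 16.4 ± 0.506 CPM (SD, n = 3 each), and *Tbp* had the lowest fold of the 8, with a log2 fold change of -0.27 (SE 0.130, 95% confidence interval -0.54 to 0.0098, edgeR adjusted p = 0.217). It was -0.032 after the correction and -0.12 for the mice numbered 1. Exons of *Tbp* overlap those of *Pdcd2* on the opposite strand over 2582 bp. *Pdcd2* held 584 counts in the 6 libraries, and as the strand setting of the counting is not given in the sources used here, reads of the overlap may not have been told apart. Among 13 TFIID subunit genes, the partners of TBP, 0 passed, 3 had an unadjusted p below 0.05 with a lower value (12.4% of all genes tested did), and the median was -0.15, or -0.074 after the correction.

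*Hprt* (chromosome X, 52988137 to 53021659) encodes the enzyme that returns hypoxanthine and guanine to the nucleotide pool. It was at 88.7, 104 and 105 CPM in WT and 97.7, 86.7 and 81.6 CPM in Ube3am-/p+ mice, so that Ube3am-/p+ mouse 1 lay above WT mouse 1. The means were 99.3 ± 9.18 and 88.7 ± 8.27 CPM (SD, n = 3 each), with a log2 fold change of -0.15 (SE 0.0979, edgeR adjusted p = 0.368). The sign turned with the correction, to 0.022, and in the mice numbered 1, to 0.14. Of 8 other genes of purine metabolism and salvage tested, 0 passed and the median was -0.036.

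*Gusb* (chromosome 5, 129989011 to 130003049), the lysosomal beta-glucuronidase, was the member with the fewest counts, 97 to 160 per library, and the only one with a higher mean in Ube3am-/p+ mice. The levels were 13.0, 11.2 and 13.4 CPM in WT and 12.7, 14.1 and 12.1 CPM in Ube3am-/p+ mice, with full overlap. The means were 12.5 ± 1.19 and 13.0 ± 1.06 CPM (SD, n = 3 each). The log2 fold change of 0.073 (SE 0.152, 95% confidence interval -0.25 to 0.40, edgeR adjusted p = 0.800) leaves room for a difference in either direction at this depth, and the correction gave -0.0064. Of 14 other lysosomal glycosidase and sulfatase genes, 0 passed and the median was 0.0068.

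The remaining members act at the cell surface. *B2m* (chromosome 2, 122147686 to 122153083), the light chain of MHC class I molecules, was at 58.5, 70.0 and 72.7 CPM in WT and 66.8, 57.8 and 50.7 CPM in Ube3am-/p+ mice, and the genotypes overlapped. The means were 67.1 ± 7.50 and 58.4 ± 8.11 CPM (SD, n = 3 each), with a log2 fold change of -0.18 (SE 0.113, edgeR adjusted p = 0.328). It was -0.074 after the correction and 0.20 for the mice numbered 1. Of 10 genes of MHC class I molecules and their peptide loading, 0 passed, and their median was 0.088, on the other side of 0 from the value of *B2m*, or -0.014 after the correction.

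*Tfrc* (chromosome 16, 32608920 to 32632794) encodes the transferrin receptor, which carries iron into the cell, and had the lowest adjusted p of the 8. Its levels were 134, 155 and 156 CPM in WT and 132, 121 and 120 CPM in Ube3am-/p+ mice. The mice numbered 1 lay next to each other on either side of the gap, and the other mice stood further apart. The means were 149 ± 12.5 and 124 ± 6.75 CPM (SD, n = 3 each), a ratio of 0.835. The log2 fold change was -0.24 (SE 0.0890, 95% confidence interval -0.43 to -0.054, edgeR adjusted p = 0.114), and DESeq2 gave an adjusted p of 0.0929. Without WT mouse 1, *Tfrc* passed edgeR's test, at -0.31 with an adjusted p of 0.0186, in a comparison in which 17.6% of all genes tested passed. With the GC and length correction it was at 0.030, and the mice numbered 1 gave -0.020. Its GC content of 39.8% was the lowest of the 8.

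Of 11 other genes of iron uptake and storage, 1 passed the test (2.01% of all genes tested did). It was *Ireb2*, the gene of iron regulatory protein 2, which binds elements of the kind printed above. *Ireb2* was at 85.2, 90.7 and 93.5 CPM in WT and 74.1, 65.1 and 65.1 CPM in Ube3am-/p+ mice, all of them below the WT mice, and fell with a log2 fold change of -0.38 (SE 0.0914, edgeR adjusted p = 0.0430). With the correction it was at -0.078 (edgeR adjusted p = 0.703), so the call was lost. The median of the 11 genes was 0.020. The summed level of 9 microglial markers was 434 to 470 CPM in WT and 411 to 425 in Ube3am-/p+ mice, and that of 7 endothelial markers was 331 to 337 and 307 to 324. In both lists 0 markers passed, 0 were at 0, and their median log2 fold changes were 0.045 and -0.16. Both sums were lower in all Ube3am-/p+ mice, as *Tfrc* was. The same held for the summed markers of oligodendrocytes, their precursors, pericytes with smooth muscle, and thalamus. For oligodendrocytes the sums were 7954 to 8070 CPM in WT and 6641 to 7568 in Ube3am-/p+ mice. The sums for neurons, hippocampus, astrocytes, meninges, choroid plexus and blood overlapped. Of single markers, 1 of 4 for precursors passed the test (*Pdgfra*, log2 fold change -0.43), and 1 of 6 for pericytes with smooth muscle (*Rgs5*, -0.51). So did 1 of 4 tested for thalamus (*Rora*, -0.62) and 1 of 8 for meninges (*Col1a1*, 0.73), beside 2.01% of all genes tested. No marker of the other cell types passed. The part of any cell type in the values of *B2m* and *Tfrc* was not tested.

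**Figure D2:**
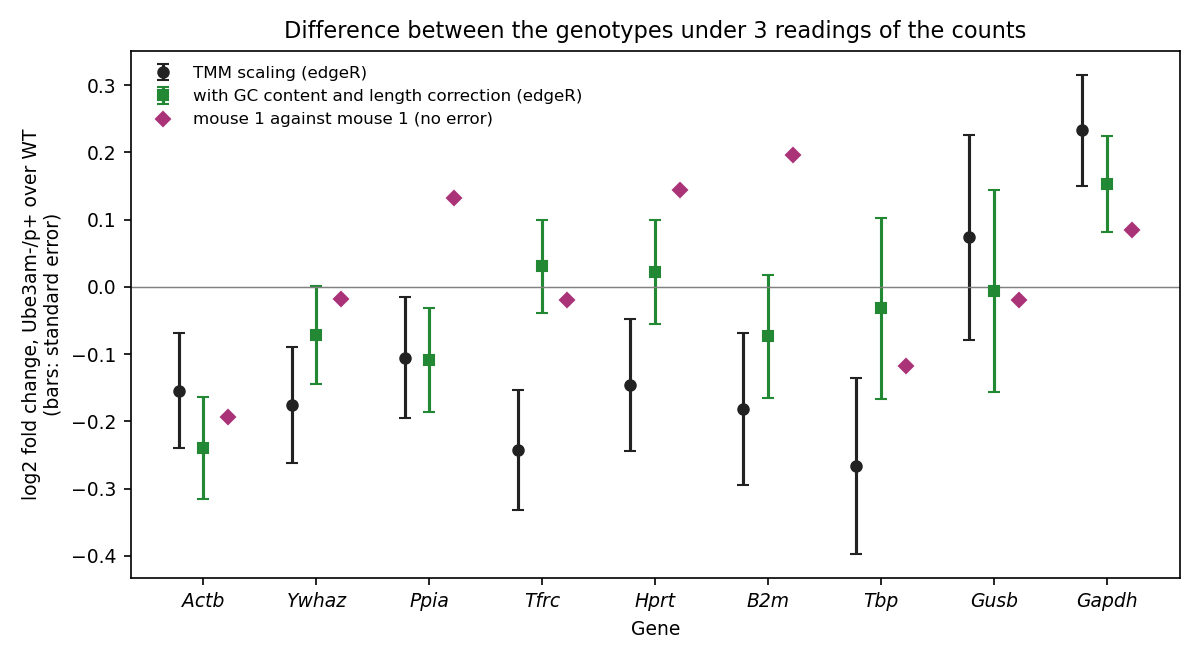
Log2 fold change (Ube3am-/p+ over WT) of the 8 members and *Gapdh* from edgeR with TMM scaling and with the GC and length correction, each with its standard error, and for the mice numbered 1, which have no error. *Tfrc* goes from -0.24 to 0.030 with the correction, while *Actb* goes from -0.15 to -0.24.

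*Gapdh* (chromosome 6, 125161715 to 125166467), the glycolytic enzyme used as the study's reference, lay on the other side of 0 from 7 of the 8 members. Its levels were 1413, 1321 and 1267 CPM in WT and 1493, 1561 and 1590 CPM in Ube3am-/p+ mice, with all Ube3am-/p+ mice above all WT mice. The means were 1334 ± 73.8 and 1548 ± 50.1 CPM (SD, n = 3 each). The log2 fold change of 0.23 (SE 0.0824, edgeR adjusted p = 0.105) did not pass edgeR's test. With DESeq2 the adjusted p was 0.0401, but the log2 fold change of 0.23 stayed short of the fold change required for a call. Without WT mouse 1, *Gapdh* passed edgeR's test, at 0.28 with an adjusted p of 0.0253, as did 17.6% of all genes tested. After the correction it was 0.15 with the longest transcript and 0.011 with the principal transcript, and the mice numbered 1 gave 0.084. Of 24 other genes used as RT-qPCR references, 18 also had a log2 fold change above 0, while 49.7% of all genes tested were below 0. The median of these 24 was 0.15, or 0.058 after the correction. *Gapdh* and *Ppia* are the genes of the 9 with many near copies in the genome. In 13607 pseudogene transcripts searched, 143 pseudogenes held at least 80% of the *Gapdh* coding sequence at an identity of at least 90%. The number was 28 for *Ppia*, 1 each for *Actb* and *Ywhaz*, and 0 for the other members. Reads that fit a gene and a copy equally are counted for neither when only reads with 1 alignment are used. The share of reads with several alignments was 4.15% to 5.77% in the WT libraries and 3.71% to 4.06% in the Ube3am-/p+ libraries, with all WT libraries above all Ube3am-/p+ libraries. The part of this in the values of *Gapdh* and *Ppia* was not tested.

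The study's *Gapdh* primers are shown because they can be matched to the same copies.
Gapdh forward primer: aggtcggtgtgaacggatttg
Gapdh reverse primer: ggggtcgttgatggcaaca
Both primers matched 5 of the 13 annotated *Gapdh* transcripts, with a product of 95 bp. Both also occurred without a mismatch in transcripts of 40 pseudogenes, where their order and a product were not checked. The study's reverse transcription mix included a remover of genomic DNA.

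Over the 6 libraries, the members were steadier than the middle of all genes tested, except *B2m*. The SD of log2 CPM was 0.119 for *Gusb*, 0.122 for *Actb*, 0.126 for *Ppia*, 0.134 for *Ywhaz*, 0.150 for *Hprt*, 0.169 for *Tfrc*, 0.179 for *Tbp* and 0.198 for *B2m*, and 0.132 for *Gapdh*. The errors of the members' SDs ran from 0.038 (*Gusb*) to 0.063 (*B2m*), so members with close SDs were not told apart. The median SD over the 14445 genes tested was 0.194, and 7 of 8 members lay below it. Deeply counted genes have less counting error, and among the 9719 genes with a mean of at least 117.5 counts, that of *Gusb*, the median was 0.157 and 5 of 8 members lay below it. Of all genes tested, 21.1% were steadier than *Gusb*, 22.1% steadier than *Actb* and 51.3% steadier than *B2m*. Among the 9719 genes these shares were 30.2%, 31.7% and 68.5%. For *Gusb* the coefficient of variation of 8.13% was no larger than the 9.36% that counting alone gives at its depth. For *Actb* the figures were 8.21% and 0.911%, so nearly all of its spread lay beyond counting error. *Tbp* stood between these, with 12.7% against 7.81%.

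**Figure D3:**
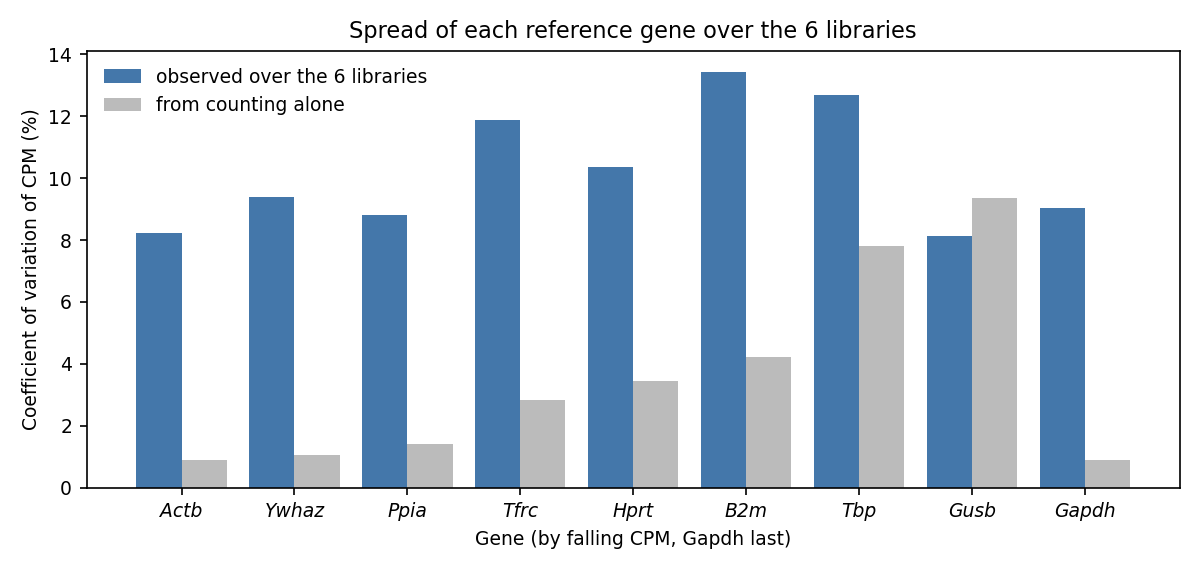
Coefficient of variation of CPM over the 6 libraries, in percent, of the 8 members and *Gapdh* (blue bars), beside the value that counting alone gives at the depth of each gene (grey bars). Genes stand in order of falling CPM with *Gapdh* last, and the grey bar reaches above the blue bar for *Gusb* (9.36% against 8.13%).

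The order of steadiness changed with the GC and length correction. *Tfrc* went from 0.169 to 0.0207, *Hprt* from 0.150 to 0.0770 and *Ywhaz* from 0.134 to 0.0776, while *Actb* went from 0.122 to 0.164. The corrected spread of *Tfrc* is smaller than counting alone gives at its depth, a coefficient of variation of 2.85%. The SD of *Actb* was 0.0242 within WT mice and 0.114 within Ube3am-/p+ mice. In 24 other genes used as RT-qPCR references the median SD was 0.132, with a range of 0.0433 to 0.618, and in 10 genes proposed as references from RNA-seq it was 0.130, with a range of 0.0697 to 0.377, against 0.142 in the 8 members. Of the 24, 2 passed the test (2.01% of all genes tested did), the ribosomal protein genes *Rpl32* and *Rps18*. *Rpl32* was at 69.4, 70.0 and 68.7 CPM in WT and 86.3, 108 and 106 CPM in Ube3am-/p+ mice, without overlap, and rose with a log2 fold change of 0.55 (edgeR adjusted p = 0.0362), or 0.39 after the correction (adjusted p = 0.0179). *Rps18* was at 89.4, 96.4 and 84.1 CPM in WT and 105, 127 and 128 CPM in Ube3am-/p+ mice, and rose with a log2 fold change of 0.43 (edgeR adjusted p = 0.0406), or 0.30 after the correction (adjusted p = 0.0726). Of the 10, 1 passed the test (2.01% of all genes tested did). It was *Snrpd3*, a core protein of the splicing machinery, with 24.4, 21.2 and 21.3 CPM in WT against 27.8, 37.7 and 37.3 CPM in Ube3am-/p+ mice. The log2 fold change of *Snrpd3* was 0.64 (edgeR adjusted p = 0.0362), or 0.69 after the correction (adjusted p = 0.0136). In the mice numbered 1, the log2 fold changes of *Ireb2*, *Rpl32*, *Rps18* and *Snrpd3* were -0.20, 0.32, 0.24 and 0.20. The calls of *Ireb2*, *Rpl32*, *Rps18* and *Snrpd3* were each lost without WT mouse 2, WT mouse 3, Ube3am-/p+ mouse 2 or Ube3am-/p+ mouse 3 (edgeR adjusted p of 0.121 to 0.272). This loss was not particular to them, as 0, 0, 0 and 2 of all genes tested were called without these mice.

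Ratios between genes of the same library need no library scaling, so the members were also compared in pairs. Over the 28 pairs of members, the SD of the log2 ratio ranged from 0.0544 (*Hprt* with *B2m*) to 0.257 (*Tbp* with *Gusb*). Between *Gapdh* and the 8 members it ranged from 0.160 (*Gusb*) to 0.317 (*B2m*). The mean SD of a member with the 7 others was 0.103 for *Ywhaz*, 0.105 for *Tfrc*, 0.109 for *Hprt*, 0.113 for *Ppia*, 0.124 for *Tbp*, 0.143 for *B2m*, 0.147 for *Actb* and 0.224 for *Gusb*. For *Gapdh* with the 8 members it was 0.261. *Gusb*, the member with the lowest SD of its own log2 CPM, had the least steady ratios to the others. Without WT mouse 2 its mean SD was 0.165. With the GC and length correction it was 0.168, and *Tbp*, at 0.182, was then the member with the least steady ratios.

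Between the genotypes, 6 of the 28 ratios among members did not overlap (21.4%), and 6 differed by more than 0.2 on the log2 scale, all of them with *Gusb*. For this and the counts of ratios below, no share over ratios of other genes was computed. Of the single genes tested, 25% did not overlap in CPM. The largest difference was -0.33 (*Tbp* over *Gusb*), with overlap between the genotypes. The GC and length correction changed which ratios differed. *Tbp* over *Gusb* went to -0.029, *Gusb* over *Tfrc* from 0.31 to -0.039 and *B2m* over *Gusb* from -0.25 to -0.069. The ratios beyond 0.2 were then 4, all of them with *Actb*, which was lower over *Tfrc* (-0.27), *Hprt* (-0.26), *Gusb* (-0.23) and *Tbp* (-0.21), and 4 of the 28 did not overlap. In the mice numbered 1, *Actb* over *B2m* was at -0.39 and over *Hprt* at -0.34.

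Of the 8 ratios with *Gapdh*, 4 did not overlap, those of *Tbp* (-0.50), *Tfrc* (-0.47), *Ywhaz* (-0.41) and *Actb* (-0.39). After the correction these were -0.19, -0.12, -0.23 and -0.40, and 3 of the 8 did not overlap. In the mice numbered 1 they were -0.20, -0.10, -0.10 and -0.28. By the exact permutation test over mice, two-sided, the smallest p that 3 mice against 3 allow is 0.1, and over the 36 ratios the smallest Benjamini-Hochberg adjusted p was 0.36. No ratio passed, and with this design none could.

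**Figure D4:**
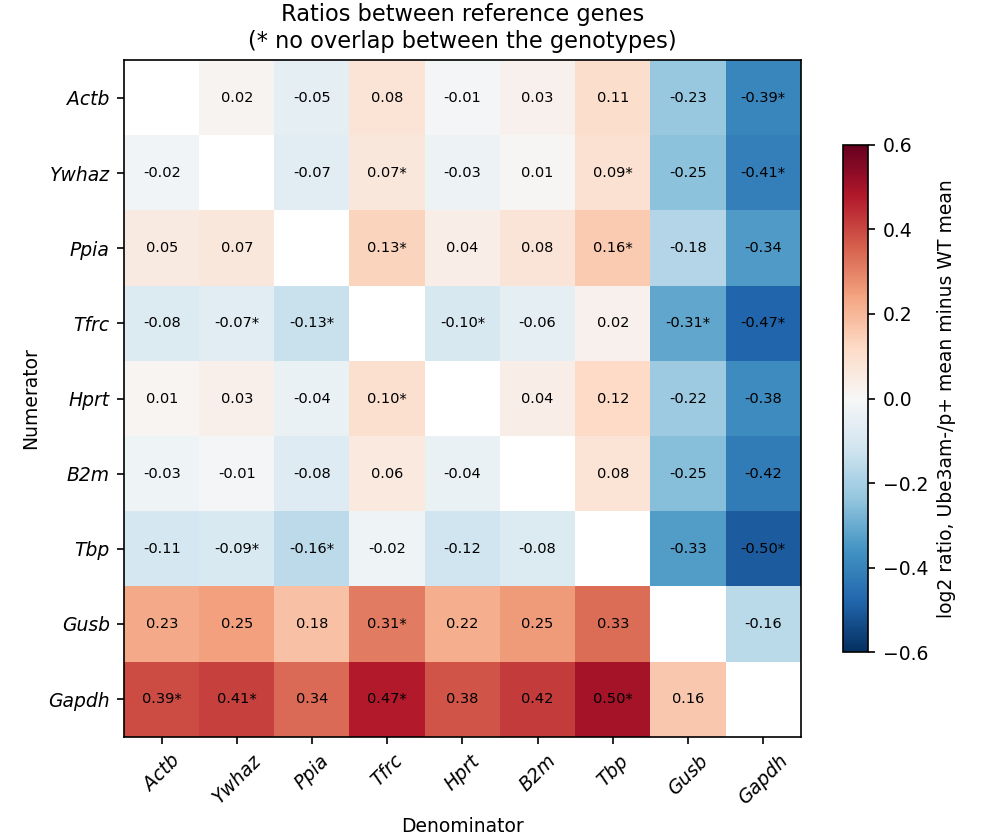
Differences between the genotypes (Ube3am-/p+ minus WT, log2) of the ratio of each pair among the 8 members and *Gapdh*, row gene over column gene, with a star where the genotypes do not overlap. The ratios with *Gapdh* run from -0.16 (*Gusb*) to -0.50 (*Tbp*), and the ratios among members other than *Gusb* stay within 0.2 of 0.

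The genes that moved most like each member, among 42 candidates made up of the other members, *Gapdh* and both lists of reference genes, were found by the smallest SD of the log2 ratio over the 6 libraries. They were *Reep5* for *Ywhaz* (0.0327) and for *Ppia* (0.0559), *Vps29* for *Tbp* (0.0338) and for *Tfrc* (0.0368), *Ipo8* for *Hprt* (0.0358), *Hprt* for *B2m* (0.0544), *Rab7* for *Actb* (0.0736) and *Chmp2a* for *Gusb* (0.104). *Gapdh* was the nearest gene of no member. With the GC and length correction the SD of *Tbp* to *Vps29* was 0.116, that of *Hprt* to *Ipo8* 0.0665, that of *B2m* to *Hprt* 0.0848 and that of *Gusb* to *Chmp2a* 0.161. Without Ube3am-/p+ mouse 1 the SD of *Actb* to *Rab7* was 0.0353. Without Ube3am-/p+ mouse 3 that of *B2m* to *Hprt* was 0.0269 and that of *Ywhaz* to *Reep5* 0.0215. These ratios describe 6 libraries that differ in GC relation and depth as well as in genotype.

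Levels per length of the principal transcript, in CPM per kb, put the members in an order that was clear at most steps. *Actb* was highest, at 697 ± 57.2 CPM per kb (SD, n = 6), with a range of 617 to 749. *Ppia* followed at 476 ± 41.9, with a range of 423 to 538, below all values of *Actb*. *Ywhaz* was at 306 ± 28.7, but at 474 with its shortest principal transcript, where its range overlaps that of *Ppia*. *B2m* (73.0 ± 9.81) and *Hprt* (72.9 ± 7.56) did not differ beyond their spread. *Tfrc* was at 27.9 ± 3.31, *Gusb* at 4.75 ± 0.386 and *Tbp* at 1.42 ± 0.181. With its shortest principal transcript *Tbp* was at 9.64, above *Gusb*, so the order of these was not settled. *Gapdh* stood above all 8, at 1015 ± 91.7 CPM per kb.

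The choice of reference set the size of the *Ube3a* difference. As a ratio of counts in the same library, *Ube3a* in Ube3am-/p+ mice was at 57.3% of WT when divided by *Gapdh*. Divided by *Gusb* it was at 64.1%, by *Ppia* at 72.4%, by *Hprt* at 74.5%, by *Actb* at 75.1%, by *Ywhaz* at 76.0%, by *B2m* at 76.5%, by *Tfrc* at 79.5% and by *Tbp* at 80.8%. These are ratios of geometric means over 3 mice each, and they run from -0.80 to -0.31 on the log2 scale. The genotypes did not overlap with 6 of 8 members and overlapped with *Actb* and *Tbp*, where Ube3am-/p+ mouse 1 lay above WT mouse 1. The exact permutation p, two-sided, was 0.1 for *Gapdh* and the 6 members without overlap, the smallest possible, and 0.2 for *Actb* and *Tbp*. The GC and length correction brought most of these differences nearer to 0. On the log2 scale, *Ube3a* over *Gapdh* went from -0.80 to -0.35, over *Gusb* from -0.64 to -0.18, over *Ppia* from -0.47 to -0.084, over *Hprt* from -0.43 to -0.22, over *Ywhaz* from -0.40 to -0.12, over *B2m* from -0.39 to -0.12, over *Tfrc* from -0.33 to -0.22 and over *Tbp* from -0.31 to -0.16. Over *Actb* it turned from -0.41 to 0.049. In the mice numbered 1, *Ube3a* over *Gapdh* was at -0.18, and over the members it ran from -0.29 (*B2m*) to 0.10 (*Actb*).

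**Figure D5:**
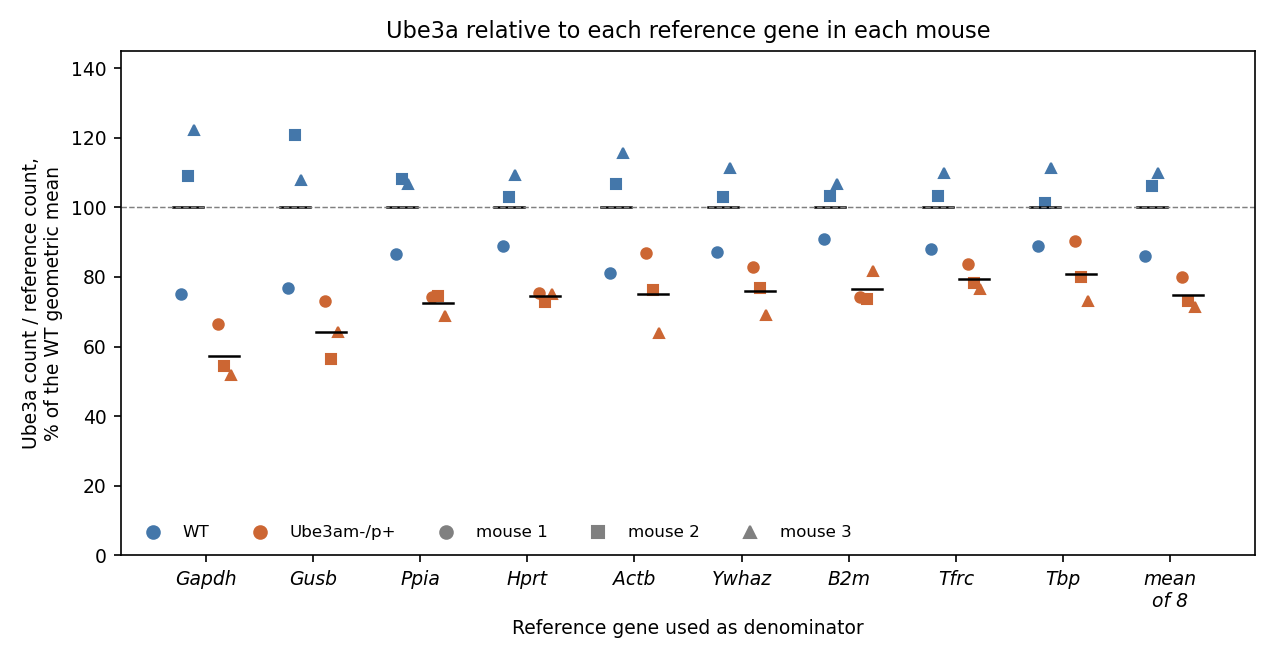
*Ube3a* count divided by the count of each reference gene, in percent of the WT geometric mean, with 1 point per mouse and a bar at the geometric mean of each genotype. Ube3am-/p+ mice average 57.3% of WT with *Gapdh* as the denominator and 64.1% to 80.8% with the 8 members.

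The geometric mean of the 8 members, a common way to combine references, was 136, 150 and 155 CPM in WT and 137, 128 and 128 CPM in Ube3am-/p+ mice, with Ube3am-/p+ mouse 1 just above WT mouse 1. The log2 difference was -0.17 (exact permutation p = 0.2). Relative to this mean, *Ube3a* was at 74.7% of WT (log2 difference -0.42, exact permutation p = 0.1), and *Gapdh* was at 10.4, 8.83 and 8.16 in WT and 10.9, 12.2 and 12.5 in Ube3am-/p+ mice. This log2 difference of 0.38 between *Gapdh* and the 8 members (exact permutation p = 0.1, the smallest possible) is by construction what separates every value read against *Gapdh* from the same value read against the mean of the 8. The difference was 0.21 after the GC and length correction and 0.071 in the mice numbered 1.

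The shift is the same for the remaining target genes of the RT-qPCR experiments. *Dpysl3*, which encodes a protein of axon growth, was at 60.8% of WT with *Gapdh* and 79.4% with the geometric mean of the 8, and the genotypes did not overlap with 7 of 8 members. *Erbb4*, a neuregulin receptor, was at 59.3% and 77.4%, without overlap with 2 of 8 members. With *Gapdh* and with the geometric mean its genotypes overlapped (exact permutation p = 0.2 each). In both ratios Ube3am-/p+ mouse 1 lay above WT mouse 1. *Arhgap5* was at 63.1% and 82.4%, without overlap with 3 of 8. *Calb1*, the calcium-binding protein calbindin, was at 64.6% and 84.3%, without overlap with 1 of 8. With the geometric mean the genotypes overlapped for *Calb1* (exact permutation p = 0.2). After the GC and length correction, the log2 differences relative to the geometric mean were -0.41 for *Dpysl3*, -0.18 for *Erbb4*, 0.0015 for *Calb1* and 0.086 for *Arhgap5*, and -0.13 for *Ube3a*. Relative to *Gapdh* they were -0.63, -0.39, -0.21, -0.13 and -0.35.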

How the data were processed

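Total RNA of the hippocampus was sequenced in 3 WT and 3 Ube3am-/p+ mice, 1 library each. The deposited values are counts, whole numbers per gene symbol in 1 table per library, made by the authors without normalization or pooling. The submitters' processing notes name STAR 2.7.4a, HTSeq and the build mm10, and the annotation and strand setting are not given in the sources used here. Summary lines that name no gene, with 54.1% to 55.0% of reads on no feature, were left out. The members and the gene lists were chosen with earlier results of these data known.

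Counts were kept by filterByExpr, scaled by TMM and tested with genotype as the only factor in edgeR 4.0.16 (R 4.3.3; quasi-likelihood, robust, two-sided). A gene was called at a Benjamini-Hochberg adjusted p below 0.05 over 14445 genes and a fold change above 1.2. CPM, ratios and SDs used total gene counts without a pseudocount. DESeq2 1.42.0 was an alternative. The correction for GC content and length used natural splines (5 degrees of freedom) per library on the longest GENCODE M21 transcript (GRCm38), available for 98.1% of the genes tested. Its repeat with the longest principal transcript, and the values of the mice numbered 1, were chosen after seeing the data, as were the alternatives for *Gapdh* over the mean, the nearest genes, the lowest-SD genes and the other RT-qPCR genes. The edgeR and DESeq2 calls were tested on simulated counts with set fold changes and no GC relation. The GC and length correction, the SDs, the ratios and the permutation were not tested in this way. Single values were compared by exact permutation of mice. Replicates are separate animals, and no 2 libraries were copies of each other. The deviations of same-numbered mice from their genotype means were negatively correlated, which does not settle whether the numbers pair the mice.

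Named genes were the members, *Gapdh*, *Ube3a*, the RT-qPCR genes, the nearest gene of each member, the 3 genes with the lowest SD among those with at least 500 counts on average, and called genes of the lists. *Pdcd2* is named for its overlap with *Tbp*.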

Additional observations from a re-analysis of the deposited data

How the results depend on the processing

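No member passed the test under any scaling or filter tried, without a fold threshold, with DESeq2, or with the GC and length correction. Leaving out each mouse in turn gave 0 to 1 members (*Tfrc* without WT mouse 1). At an unadjusted edgeR p below 0.05, 1 member passed (*Tfrc*), and 0 did when a fold change above 1.2 was also required. The number of genes called, 290, was 953 with DESeq2 and 1176 with no filter. At an unadjusted p below 0.05 with a fold change above 1.2 it was 2832. It was 92 with the correction, 105 with the principal transcript, and 0 to 2582 with each mouse left out. Under a replicate block 0 genes were called, and 13 with the block and the correction. The correlations of the deviations of same-numbered mice from their genotype means were -0.28, -0.18 and -0.31. As the GC relations of mice 2 and 3 ran in opposite directions in the genotypes, these correlations cannot settle whether the numbers pair the mice. The counts of WT mouse 1 and Ube3am-/p+ mouse 1 were the most alike of any pair of libraries (chi-square per degree of freedom 3.91).

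Signs turned as follows, and the cause was not tested. With the correction, *Hprt* had a log2 fold change of 0.022 (0.021 with the block), *Tfrc* 0.0304 (0.0304 with the block) and *Gusb* -0.0064 (-0.0063 with the block). With the principal transcript, *Hprt* and *Tfrc* were at 0.061 and 0.060. In the mice numbered 1, *Hprt* was at 0.14, *B2m* at 0.20, *Ppia* at 0.13 and *Gusb* at -0.020. With a mouse left out, *Gusb* ranged from -0.0029 to 0.12. *Ube3a* over *Actb* turned to 0.049 with the correction and 0.10 in the mice numbered 1, and *Ube3a* over *Tbp* to 0.025 in the latter. *Calb1* and *Arhgap5* over the geometric mean turned to 0.0015 and 0.086 with the correction. The SD of log2 CPM moved with the correction to 0.164 (*Actb*), 0.0770 (*Hprt*), 0.0776 (*Ywhaz*) and 0.0207 (*Tfrc*), and the mean SD of the ratios of *Tbp* to 0.182. Depth limits *Gusb* and *Tbp* most, and 3 mice against 3 cannot give an exact p below 0.1.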

Other observations

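Before the GC and length correction, some genes outside the usual reference sets had lower SDs of log2 CPM than any member. Among the 4472 genes tested with at least 500 counts on average, where the median SD of log2 CPM was 0.135, the lowest SDs were those of *Zcchc18* (0.0163), *Copz1*, which encodes a subunit of the COPI coat of vesicles (0.0170), and *Dalrd3* (0.0196). *Zcchc18* lay between 247 and 254 CPM in the 6 libraries, *Copz1* between 65.0 and 67.2, and *Dalrd3* between 104 and 107. The coefficients of variation, 1.13%, 1.18% and 1.36%, were below those that counting alone gives at these depths, 2.11%, 4.11% and 3.24%. After the correction the SDs were 0.0825, 0.0338 and 0.169, all above the 0.0207 of *Tfrc*. That value of *Tfrc* also lies below the spread that counting alone gives at its depth. Without WT mouse 3 the SD of *Copz1* was 0.0105. These genes were picked for their low spread, and no test was made of them.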
